A study of Mus musculus with 2 samples.

Results

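Tuft cells are scattered chemosensory cells of the gut lining, and 9 genes that mark them or carry out their signalling were followed here through 2 RNA-seq libraries of whole mouse stomach. The genes were taken by symbol (Dclk1, Trpm5, Pou2f3, Gnat3, Plcb2, Alox5, Alox5ap, Avil and Il25), and all 9 were found among the 43346 mouse genes of the tables. The stomachs came from C57BL/6J mice (an inbred strain in wide use) that were 8 weeks old, with males and females of the same litters pooled. No treatment or genetic change is named. RNA with poly(A) tails, longer than 200 nucleotides and freed of ribosomal RNA, was read from both ends for 76 nucleotides in a way that kept the strand, with spike-in RNA added. Both libraries form 1 group, with biological replicate numbers 1 and 2 and a tissue sample each. The donor record is one and the same for both, so whether the pools are separate animals is not known, and no contrast between groups exists.

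Tuft cells use the signalling chain of taste cells. A receptor at the cell tip activates a G protein, whose alpha subunit gustducin is encoded by Gnat3; phospholipase C beta, encoded by Plcb2, then makes the messenger IP3, calcium leaves internal stores through IP3 receptors, and the calcium opens the cation channel encoded by Trpm5. The transcription factor encoded by Pou2f3 is needed for tuft cells to form. The cells release the cytokine interleukin 25, from Il25, which acts on innate lymphocytes of type 2 immunity, and make leukotrienes with the arachidonate lipoxygenase encoded by Alox5 and the protein that presents substrate to it, encoded by Alox5ap. Dclk1, a kinase with a microtubule-binding part, and Avil, an actin-binding protein of the villin family called advillin, serve as markers.

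The splice junctions that tell the Dclk1 transcripts apart are shown first, since a long and a short form of this gene hold different parts of the protein. In each, lower case is the end of the upstream exon and capitals are the start of the downstream exon, 15 coding bases on each side, from the GENCODE M21 transcripts on mm10. The first pair reaches the same exon from an upstream exon of the long form (intron chr3:55451084-55463000) or from the first exon of a form with a later start (intron chr3:55462083-55463000). The last pair leaves the same exon toward the kinase part (intron chr3:55463096-55477804) or toward a last exon that ends the transcript early (intron chr3:55463096-55466572).
Dclk1 long start: cctccaccagctcagTTAATGGAACCCCTG
Dclk1 short start: tagagctcatagaagTTAATGGAACCCCTG
Dclk1 kinase: ctgcggaagcagaggATCTCTCAGCATGGC
Dclk1 early end: ctgcggaagcagaggGACCTGTACCGCCCC

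The promoter of Avil is shown because Avil had the highest TPM of the 9 genes and was the only one of the 6 with a window that held a match to part of a POU motif. The sequences are the 250 bases before the transcript start in RefSeq on GRCm38.p6, the same build as mm10, written in the direction of transcription. RefSeq windows were found for 6 of the 9 genes (not for Pou2f3, Alox5ap and Il25), 7 windows in all, with a pair for Dclk1. The octamer ATGCAAAT, a classical binding motif of POU factors such as the product of Pou2f3, was searched on both strands and was in none of these 7 windows, against 1.6% of all 32851 windows. Its first letters ATGCAAA were in the Avil window in 2 places, set in capitals (on the other strand as TTTGCAT), and in none of the other 6 windows, against 4.12% of all windows. The matches began 15 bases before the start on the same strand and 115 bases before it on the opposite strand. Every octamer also holds the shorter motif. A match describes letters and not a bound site. The windows of the early and the late start of Dclk1 are given because reads were found for both.
Avil promoter (chr10:127000459-127000708, plus strand): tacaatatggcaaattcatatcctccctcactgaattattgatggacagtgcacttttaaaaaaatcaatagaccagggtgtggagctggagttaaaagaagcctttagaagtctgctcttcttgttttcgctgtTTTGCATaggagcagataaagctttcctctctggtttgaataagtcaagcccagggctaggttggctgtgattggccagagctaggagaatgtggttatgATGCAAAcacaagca
Dclk1 early start (chr3:55242114-55242363, plus strand): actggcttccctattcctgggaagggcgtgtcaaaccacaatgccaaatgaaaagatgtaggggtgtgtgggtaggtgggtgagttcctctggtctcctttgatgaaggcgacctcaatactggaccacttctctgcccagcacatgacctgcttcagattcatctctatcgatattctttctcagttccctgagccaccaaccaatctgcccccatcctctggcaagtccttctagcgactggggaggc
Dclk1 late start (chr3:55461478-55461727, plus strand): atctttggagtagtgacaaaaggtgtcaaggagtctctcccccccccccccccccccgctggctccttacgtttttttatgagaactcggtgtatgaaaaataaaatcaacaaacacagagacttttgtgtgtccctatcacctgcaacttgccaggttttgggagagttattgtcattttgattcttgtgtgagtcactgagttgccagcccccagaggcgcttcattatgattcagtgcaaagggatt

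The tissue carried the markers of stomach. The parietal cell genes Atp4a and Atp4b, which encode the acid pump, had mean TPM (a level per transcript length, relative to all transcripts of the library) of 2043 and 1796, and all 3 chief cell and all 4 pit cell markers were detected. The libraries held 52363597 (replicate 1) and 62452468 (replicate 2) expected read pairs, of which the 9 tuft cell genes took 3409 and 4445. Clps and Pgc together took 29.6% of TPM in replicate 1 and 42.7% in replicate 2, and TPM of all other genes share what remains of the total. Over genes the libraries had a biological coefficient of variation of 0.293 by edgeR (0.175 by DESeq2). In a whole tissue, fewer cells of a type and less RNA per cell cannot be told apart.

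The 9 genes spanned the range from moderately expressed to almost unread. With a TPM of at least 1 in both libraries counted as detected, 5 of 9 were detected (Avil, Alox5ap, Trpm5, Alox5 and Pou2f3), beside 48.9% of 21474 protein-coding genes. Plcb2 passed in replicate 1 alone, and Dclk1, Il25 and Gnat3 stayed below 1 in both. The median over the 9 genes was a mean TPM of 1.085, against 1.15 over protein-coding genes. It was 1.75 with Clps, Pgc, spike-ins and phiX174 left out of the total, which raises all remaining genes of a library by the same factor. The 1.15 over protein-coding genes was not rescaled in this way, so the 1.75 cannot be set against it. In order of mean TPM the genes ran Avil, Alox5ap, Trpm5, Alox5, Pou2f3, Plcb2, Dclk1, Il25 and Gnat3, and the library ranges overlapped for 3 pairs of neighbours, Trpm5 and Alox5, Pou2f3 and Plcb2, and Dclk1 and Il25. Summed, the 9 genes held 35.12 TPM in replicate 1 and 35.10 in replicate 2, most of it Avil and Alox5ap. Of 5 tuft cell markers outside the 9 genes, Ptgs1 and Sh2d6 were detected, and Gfi1b, Chat and Rgs13 were not.

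**Figure D1:**
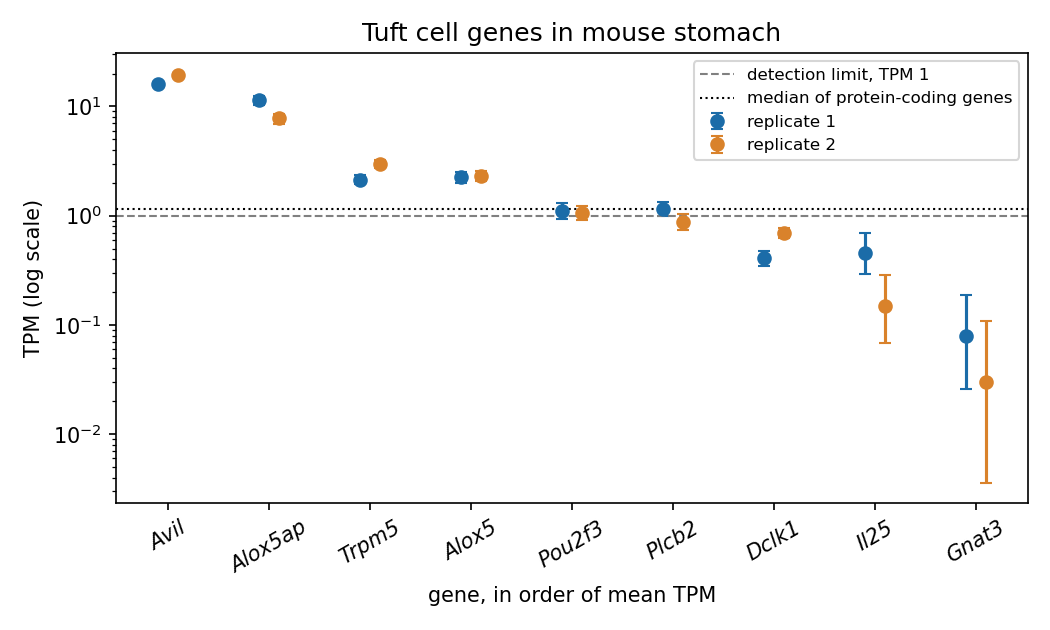
TPM (log scale) of the 9 genes in replicate 1 and replicate 2, ordered by mean TPM; bars are exact 95% Poisson intervals, which cover counting error only, the dashed line is TPM 1 and the dotted line the median of protein-coding genes (1.15). Avil (16.11 and 19.24) and Alox5ap (11.40 and 7.76) stand well above the others, and Gnat3 (0.08 and 0.03) stands lowest.

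The transcription factor gene Pou2f3 (chr9:43123939-43210369, minus strand of mm10) was read at 1.11 TPM in replicate 1 and at 1.06 in replicate 2, from 155 and 172 read pairs. The libraries lay close together, at 1.09 ± 0.0354 (SD, n = 2), rank 10871 among protein-coding genes. The log2 ratio of scaled counts, replicate 2 over replicate 1, was -0.12, with a counting interval of -0.44 to 0.20 that holds 0. Among its relatives, Pou2f1, a broadly expressed octamer-binding factor, had 5.04 ± 2.23 TPM and Pou2f2, known from B cells, 0.53 ± 0.198. The coactivator genes listed with them, 1810046K07Rik and Pou2af1, had 2.93 ± 0.976 and 0.47 ± 0.099. In this group of 5 genes Pou2f3 lay between 1810046K07Rik and Pou2f2, and its library range overlapped neither. Squamous epithelium, which lines the forestomach, also expresses Pou2f3. All 7 squamous markers were detected, beside 48.9% of protein-coding genes. The squamous markers had sums of 3961 TPM in replicate 1 and 2415 in replicate 2, with none at 0, and their part in the Pou2f3 level was not tested.

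The marker Dclk1 (chr3:55242364-55539068, plus strand) was read at 0.41 TPM in replicate 1 and at 0.70 in replicate 2, from 163 and 352 read pairs. Replicate 2 was the higher library, by a log2 ratio of 0.83 (interval 0.57 to 1.12). This was the highest ratio of the 9 genes, and it lay inside the middle 95% of protein-coding genes averaging 1 TPM or more, which ran from -1.29 to 0.97. Dclk1 itself averaged below 1 TPM and was not among those genes. Dclk2, a close relative, was higher than Dclk1 in each library, at 1.53 ± 0.24 against 0.555 ± 0.205. Dclk3, at 0.54 ± 0.0141, lay within the range of Dclk1, and Dcx, the doublecortin gene of migrating neurons, had 1 and 6 read pairs. Nerve cells also express Dclk1, and 3 of the 7 neuron markers were detected, beside 48.9% of protein-coding genes. The 7 markers had a summed TPM of 32.24 in replicate 1 and 22.21 in replicate 2, with none at 0. That sum was lower in replicate 2, where Dclk1 was higher. The part of nerve cells in the Dclk1 level was not tested.

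The other marker, Avil (chr10:127000709-127020994, plus strand), had the highest deposited TPM of the 9 genes. Its TPM was 16.11 in replicate 1 and 19.24 in replicate 2, from 1689 and 2338 read pairs, or 17.7 ± 2.21, rank 3510 of 21474. The ratio was 0.20 (interval 0.11 to 0.29). With all read pairs placed on its coding transcript of most exons, Avil came to 10.3 and 11.99 TPM, a range that overlaps the 11.4 and 7.76 of Alox5ap, which is then the higher in replicate 1. Villin itself, Vil1, which builds the core of microvilli, had 7.76 ± 1.35 TPM, less than Avil in each library. The other relatives were ordered as Gsn (gelsolin) at 580 ± 131, Flii at 148.9 ± 4.64, Vill at 73.4 ± 10.2, Capg at 48.5 ± 6.95, Svil at 22.9 ± 0.912 and, below Vil1, Scin at 0.35 ± 0.212. Avil so stood sixth of 8, and the neighbours Svil, Avil and Vil1 did not overlap. Avil overlaps Tsfm, a mitochondrial translation factor gene on the opposite strand, over 9423 bases, and Tsfm had 1309 and 1028 read pairs. The 9423 bases are an overlap of gene spans, introns included. The deposited posterior standard deviation of the Avil count was 0 in each library, so no Avil read pairs were shared out with another gene. Whether strand was used in counting is not stated, so the origin of reads in the shared bases is not certain.

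The gustducin gene Gnat3 (chr5:17962549-18019834, plus strand) was read by 5 pairs (replicate 1) and 2 pairs (replicate 2), a TPM of 0.08 and 0.03. Poisson intervals were 0.026 to 0.187 and 0.0036 to 0.108, and 3 read pairs, the limit that a count of 0 allows, correspond to 0.048 and 0.045. Replicate 1 lay above that limit and replicate 2 below it. The ratio of -0.97 had an interval from -4.98 to 1.02, and no difference between the libraries was detectable at this depth. The relatives Gnat1 and Gnat2, the transducins of the retina, were as low, at 0.09 ± 0.0283 and 0.04 ± 0.0141. Of the other alpha subunit genes, Gnai2 was abundant at 139 ± 18.2, and Gnao1 at 8.46 ± 0.849, Gnai3 at 4.0 ± 0.304, Gnai1 at 3.31 ± 0.82 and Gnaz at 2.32 ± 0.311 were lower, each still above Gnat3 in each library.

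Plcb2 (chr2:118707517-118728438, minus strand) was read at 1.16 TPM in replicate 1 and at 0.88 in replicate 2, from 179 and 151 read pairs. Its level of 1.02 ± 0.198 overlapped that of Pou2f3, its neighbour in the order of levels. With all read pairs placed on its coding transcript of most exons it came to 0.627 and 0.444, below Pou2f3 (1.11 and 1.04 on the same measure) and overlapping Dclk1 (0.369 and 0.67). The ratio was -0.51 (interval -0.84 to -0.19). It had the lowest mean of the phospholipase C beta genes, below Plcb4 at 1.49 ± 0.516 and Plcb1 at 1.51 ± 0.127, while Plcb3 stood at 33.3 ± 0.318. The ranges of Plcb2 and Plcb4 overlapped and those of Plcb2 and Plcb1 did not.

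The channel gene Trpm5 (chr7:143069153-143094642, minus strand) was read at 2.14 TPM in replicate 1 and at 2.97 in replicate 2, from 478 and 677 read pairs. At 2.56 ± 0.587 it ranked 8679 among protein-coding genes. The ratio was 0.23 (interval 0.06 to 0.41), with replicate 2 again the higher. Of its family only Trpm4, the other calcium-activated channel of the group, was higher, at 20.2 ± 0.446. Trpm7, Trpm2, Trpm1 and Trpm3 lay between 0.035 and 0.415, and Trpm6 and Trpm8 had no read pairs. Trpm5 overlaps Tssc4 on the opposite strand over 1845 bases, and Tssc4 had 2645 and 2716 read pairs, more than Trpm5.

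Of 21 other genes of the taste chain, 6 were detected, beside 48.9% of protein-coding genes, and 9 had no read pair in either library, beside 22.5%. The median was 0.055 TPM. The 6 detected genes were Gnb1, a G protein beta subunit, at 234 ± 11.6, the IP3 receptor gene Itpr3 at 44.2 ± 4.22, Entpd2, which breaks down extracellular ATP, at 36.3 ± 2.17, Trpm4, Plcg2 at 2.79 ± 0.516 and Itpr2 at 1.30 ± 0.0283. Itpr3, the IP3 receptor of taste cells, was the higher of the pair in each library. Among the genes without a read pair were Tas1r2, a sweet receptor subunit, and Calhm1, a subunit of the channel that releases ATP in taste cells. Named after the values were seen, Gng13, the gamma subunit that partners gustducin, had 3 read pairs in each library, and Tas1r3, a subunit shared by the sweet and umami receptors, had a TPM of 0.31 and 0.73.

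Alox5 (chr6:116410077-116461178, minus strand) was the steadiest of the detected genes besides Pou2f3. Its TPM was 2.25 in replicate 1 and 2.31 in replicate 2, from 291 and 392 read pairs, or 2.28 ± 0.0424, and the ratio of 0.16 had an interval from -0.06 to 0.39. The value of replicate 1 was above that of Trpm5 and the value of replicate 2 below it, so their ranges overlap. In its family Aloxe3 at 38.6 ± 9.94 and Alox12b at 26.3 ± 2.74, lipoxygenases of the skin barrier, Alox15 at 6.34 ± 4.64 and Alox12 at 4.31 ± 1.12 were higher, and Alox12e at 0.315 ± 0.0778 and Alox8 at 0.09 ± 0.099 were lower.

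Alox5ap (chr5:149264767-149288153, plus strand) came next to Avil in deposited TPM. Its TPM was 11.40 in replicate 1 and 7.76 in replicate 2, from 426 and 352 read pairs, or 9.58 ± 2.57. Replicate 1 was the higher library, and the ratio was -0.54 (interval -0.75 to -0.34). Immune cells also express Alox5 and Alox5ap. Of the leukocyte markers 4 of 6 were detected, with sums of 88.39 and 51.08 TPM in replicates 1 and 2, and of the macrophage markers 6 of 6, with sums of 215.39 and 148.83. Of the mast cell markers 6 of 8 were detected (not Cpa3 and Fcer1a), with sums of 92.97 and 46.85. Of the neutrophil markers 0 of 5 were detected, with sums of 0.67 and 1.28 and with S100a8 and Ly6g at 0. The share detected over protein-coding genes was 48.9%. The leukocyte, macrophage and mast cell sums were lower in replicate 2, as Alox5ap was, while Alox5 was not. Among the detected markers of these lists, Lcp1, Adgre1 and Kit were higher there. The marker sums of all lists are of deposited TPM, of which Clps and Pgc took 29.6% in replicate 1 and 42.7% in replicate 2. Parietal, smooth muscle, enteroendocrine, squamous and neuron marker sums were also lower in replicate 2, while chief, pit, fibroblast and tuft sums were higher. The tuft list includes Avil and other genes followed here. Its sum went from 50.58 to 52.5 TPM, a smaller rise than that of Avil itself (16.11 to 19.24). A list of 22 tuft cell markers without the followed genes had a lower sum in replicate 2 (730.9 to 565.57). Of its 13 genes averaging 1 TPM or more, 10 were lower and 3 higher. The tuft markers so did not rise as a group. The part of immune cells in the Alox5 or Alox5ap level was not tested.

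Of 15 other genes of the leukotriene pathway (enzymes, a transporter and receptors) 9 were detected, beside 48.9% of protein-coding genes, with a median of 6.00 TPM. Ltc4s, which makes leukotriene C4, had 52.9 ± 22.7 TPM, the transporter gene Abcc1 20.2 ± 0.354, Ggt5 19.4 ± 10.1, Lta4h, which makes leukotriene B4, 18.4 ± 4.45, Mgst2 11.4 ± 3.35 and the receptor gene Ltb4r2 7.41 ± 2.94. Ltc4s was lower in replicate 2 by a log2 ratio of -0.87 (interval -0.98 to -0.77). Of the 9 detected genes 5 were lower and 4 higher there, a split near that of protein-coding genes averaging 1 TPM or more (53% lower, 47% higher). The receptor gene Oxgr1 had no read pair, and Dpep3 had 1 and 7.

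The cytokine gene Il25 (chr14:54932695-54935837, plus strand) was read at 0.46 TPM in replicate 1 and at 0.15 in replicate 2, from 23 and 9 read pairs. Both values lay above the 0.06 and 0.05 TPM that 3 read pairs give. Replicate 1 was the higher, with a ratio of -1.42 (interval -2.92 to -0.46), the largest difference among the 9 genes in either direction. In its family Il17d stood at 11.1 ± 3.78 and Il17b at 1.18 ± 1.25, Il17c had 0 and 20 read pairs, and Il17a and Il17f had none. The ranges of Il25 and Dclk1 overlapped.

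Of 15 genes of the circuit that Il25 acts in, 7 were detected, a share near the 48.9% of protein-coding genes, with a median of 1.05 TPM. Areg, a growth factor of type 2 responses and of many epithelia, had 32.4 ± 23.0 TPM, the adaptor gene Traf3ip2 of interleukin 17 receptors 14.0 ± 3.64, Il4ra 10.2 ± 1.53, Il33 6.52 ± 0.679, the shared receptor chain gene Il17ra 5.58 ± 0.658 and Traf6 1.91 ± 0.693. At the low end Il9 had no read pair and Tslp had 0 and 3. Named after the values were seen, Il17rb, the chain that binds interleukin 25, had 0.695 ± 0.0778 TPM and Il13, the cytokine that acts back on the epithelium, 0.72 ± 0.0849, both above Il25 in each library.

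Between the libraries, the genes that were high enough to compare differed by less than 2-fold. Of the 6 genes averaging 1 TPM or more, Avil, Trpm5 and Alox5 were higher in replicate 2 and Alox5ap, Pou2f3 and Plcb2 lower, where 47% of 11046 protein-coding genes were higher and 53% lower. Their median log2 ratio was 0.02, against -0.03 over those genes, and its sign depended on the scaling (-0.02 with DESeq2 size factors, -0.01 from deposited TPM). Of those protein-coding genes 7.41% differed over 2-fold, against 0 of these 6. The counting interval left out 0 for 6 of the 9 genes, 3 higher and 3 lower in replicate 2, and held 0 for Alox5, Pou2f3 and Gnat3. It left out 0 for 66.7% of the 16647 protein-coding genes with a read pair, a share like that of the 9 genes. With 1 library on each side these intervals carry no error between animals, and no p-value can be given.

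**Figure D2:**
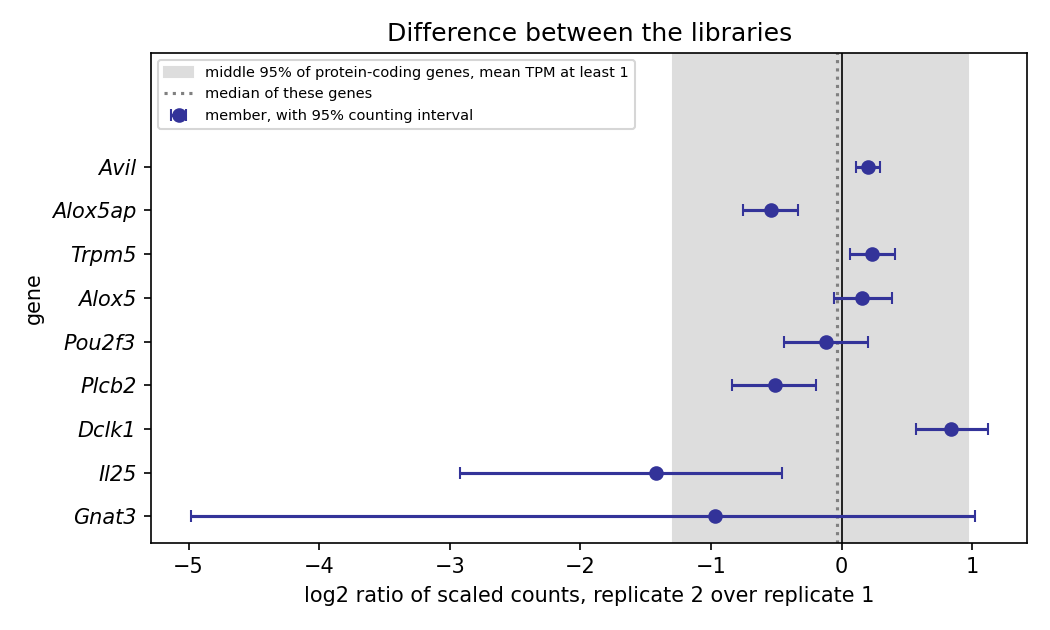
Log2 ratio of scaled counts, replicate 2 over replicate 1, for the 9 genes, with exact 95% counting intervals; the grey band is the middle 95% of protein-coding genes averaging 1 TPM or more (-1.29 to 0.97) and the dotted line their median (-0.03). The ratios of 8 genes lie inside the band, and that of Il25, at -1.42 from 23 and 9 read pairs, lies outside. Dclk1, Il25 and Gnat3 average below 1 TPM and are not among the genes that make the band.

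A further 22 genes used as tuft cell markers were followed beside the 9, and 13 of them were detected, beside 48.9% of protein-coding genes, with a median of 1.80 TPM. The highest were Krt18, a keratin of simple epithelia, at 272 ± 62.6, Cd24a at 255 ± 25.5, Ltc4s, Ptgs1, the cyclooxygenase gene, at 20.2 ± 0.0424, Ptpn6 at 8.47 ± 0.12 and Sh2d6 at 8.30 ± 0.969, and several of these are also expressed by other cells of the stomach. At the low end Rgs13 had 2 and 0 read pairs and Hpgds, a prostaglandin D synthase gene, 2 and 15. Of these 13 detected genes 10 were lower in replicate 2 and 3 were higher, where 53% of protein-coding genes averaging 1 TPM or more were lower and 47% higher. The median log2 ratio was -0.40, and 0 of the 13 differed over 2-fold, beside 7.41%.

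**Figure D3:**
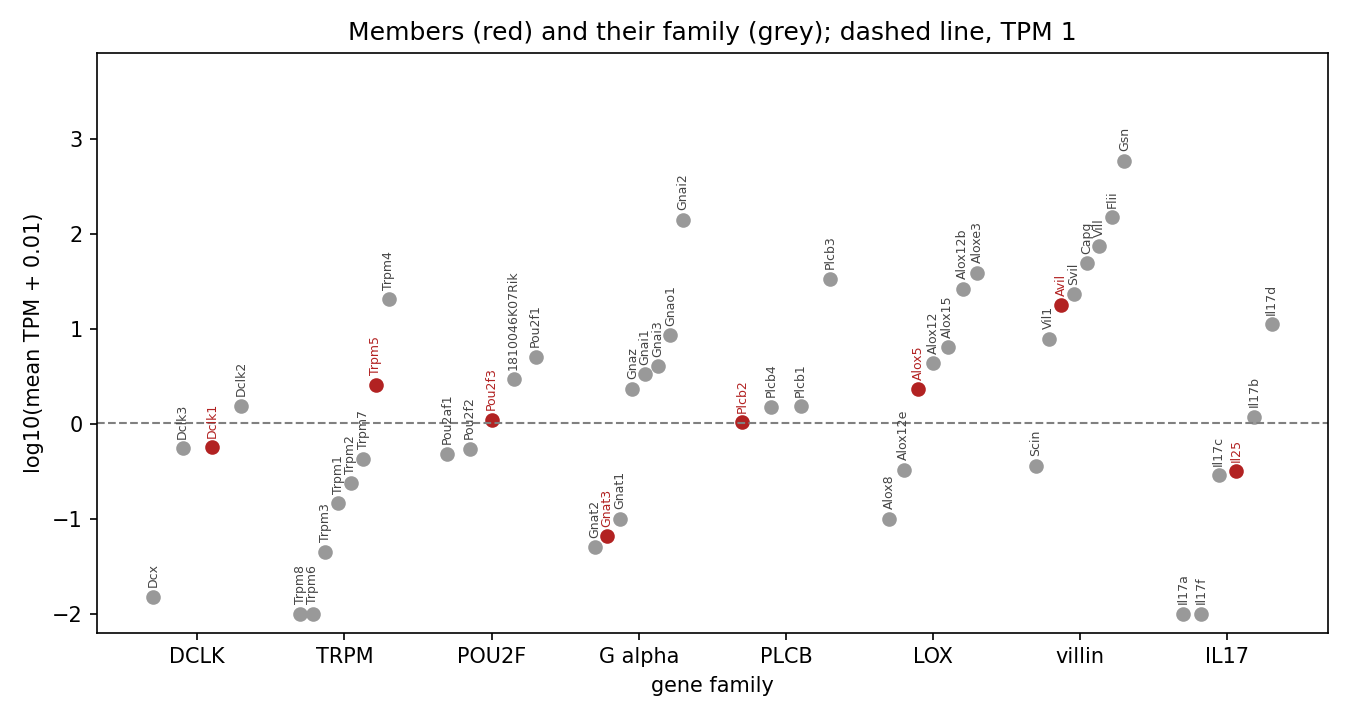
Mean TPM over both libraries, as log10(mean TPM + 0.01), of the members (red) and the genes of their families (grey), with a dashed line at TPM 1. None of the members shown is the highest gene of its family. Gnat3 (0.055), Plcb2 (1.02), Il25 (0.305) and Avil (17.7) lie far below Gnai2 (139), Plcb3 (33.3), Il17d (11.1) and Gsn (580), respectively.

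The levels of some of the 9 genes depended on the transcripts to which the read pairs were assigned. Alox5ap, Gnat3 and Il25 had reads on 1 transcript each, and of the other 6 genes the coding transcript with the most exons held the highest share of TPM in 5. Pou2f3-201 held 95.5% ± 6.39 of the TPM of Pou2f3, and Alox5-201 held 77.2% ± 8.06 of that of Alox5. For Avil, Avil-201 (3033 bases) held 61.2% of TPM in replicate 1 and 43.1% in replicate 2, and the short Avil-204 (419 bases) held 38.8% and 40.3%. By read pairs Avil-204 held only 4.56% and 5.18%. Avil-203, which shares most exons with Avil-201, was given 0 read pairs in replicate 1 and 598 in replicate 2, with a posterior standard deviation of 22.3 and 56.6.

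Dclk1 was divided between its long and short forms in a way that differed between the libraries. Dclk1-201, the long form with the kinase part, held 45.8% of TPM in replicate 1 and 78.8% in replicate 2. Dclk1-203, which starts early and ends before the kinase part, held 32.4% and 17.8%, and Dclk1-202, which starts late, held 21.8% and 3.39%. The read pairs behind these shares were 83.1 and 291 for Dclk1-201, 44.7 and 50.01 for Dclk1-203 and 35.2 and 11.2 for Dclk1-202. In TPM, Dclk1-201 stood at 0.19 and 0.55, Dclk1-203 at 0.13 and 0.12 and Dclk1-202 at 0.09 and 0.02. By these assignments Dclk1-201 was the higher in replicate 2, the late-start Dclk1-202 was lower, and the early-end Dclk1-203 was level. Only these 3 transcripts of Dclk1 had deposited levels.

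For Plcb2, transcripts without a coding frame took most of the level. Plcb2-204, which retains an intron (1248 bases), held 49.5% ± 0.9 of TPM and 20.1% ± 1.49 of read pairs, and the coding Plcb2-202 (5145 bases) held 35.0% ± 4.19 of TPM and 67.0% ± 4.82 of read pairs. Non-coding transcripts together held 62.0% and 67.9% of TPM in replicates 1 and 2. For Trpm5 the coding Trpm5-201 held 59.3% and 67.9%, and Trpm5-207, which retains an intron, 38.0% and 2.87%. Trpm5-207 was given 178.1 and 22.3 read pairs with a posterior standard deviation of 31.0 and 36.8, so its value in replicate 2 was smaller than that deviation. With all read pairs of a gene placed on its coding transcript of most exons, Avil came to 11.2 TPM, so the deposited value was 1.58 times as high, and Plcb2 to 0.535, where the deposited value was 1.91 times as high. For the other 7 genes the deposited value was between 0.994 and 1.11 times this level.

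**Figure D4:**
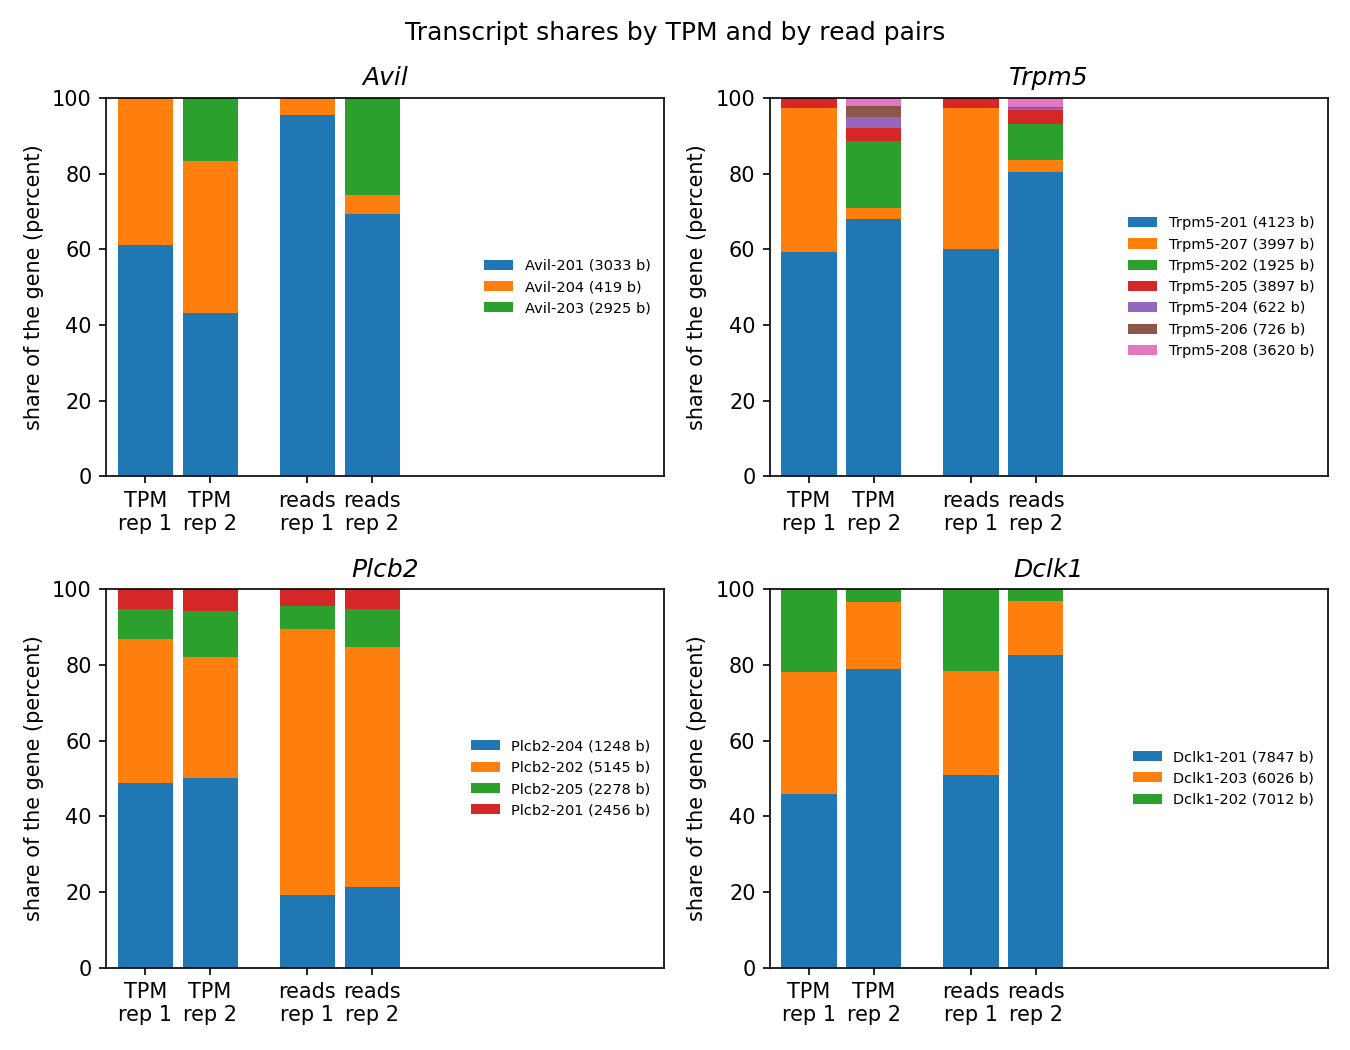
Share of each transcript in its gene, in percent, by TPM (left pair of bars) and by read pairs (right pair) in replicate 1 and replicate 2, for Avil, Trpm5, Plcb2 and Dclk1; transcript lengths in bases (b) stand in the legends. Avil-204 holds 38.8% and 40.3% of TPM and 4.56% and 5.18% of read pairs, and Dclk1-201 holds 45.8% of TPM in replicate 1 and 78.8% in replicate 2.

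Spliced reads gave a second view of the same genes. The junction table is on mm9, so junctions were tied to a gene only where their lengths and spacing were those of its GENCODE M21 introns. For the 9 genes 100 annotated introns were matched, with 4124 reads, and at the next best spacing 1 junction matched for each gene. The table splits the reads into R1 and R2, which the sources used here do not tie to a library. R2 held 58.35% of all junction reads. Avil had 2098 reads, with 18 of the 19 introns of Avil-201 covered. Trpm5 had 656 (19 of 24 introns of its coding transcript with most exons), Alox5ap 519 (all 4), Alox5 196 (12 of 13), Plcb2 194 (16 of 31) and Pou2f3 188 (9 of 12). Il25 had 21 reads over both of its introns, 19 of them in R1, and Gnat3 7 reads over 3 of 7. No Gnat3 or Il25 intron had reads in both R1 and R2, and none of these junctions had a significance score of 0.1 or lower in the table.

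Dclk1 had 245 junction reads, with 10 of the 16 introns of Dclk1-201 covered, and 127 of the reads lay on intron 1, near the early start. Intron 7 of Dclk1-201 had no reads. An intron of 2444 bases with the same 3' site had 9 (6 in R1, 3 in R2). Dclk1-201 lacks that intron, while Dclk1-202 and Dclk1-204, which also starts early, hold it. Dclk1-204 had no deposited level, so these reads do not tie the long form to Dclk1-201. For the junctions printed above, the exon shared by the forms was entered from the long start by 20 reads (5 in R1, 15 in R2) and from the short start by 6 (6 in R1, 0 in R2). It was left toward the kinase part by 20 reads (4 in R1, 16 in R2) and toward the early end by 12 (0 in R1, 12 in R2). The long start (0.069) and kinase (0.043) junctions had a significance score of at most 0.1, and the short start and early end (0.116) junctions did not. Avil's first exon was joined to the exon of Avil-201 by 54 reads (21 in R1, 33 in R2) and to the extra exon of Avil-204 by 51 (17 in R1, 34 in R2), nearly equal numbers. Intron 3 of Avil had 618 reads, the most of any intron of the 9 genes.

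**Figure D5:**
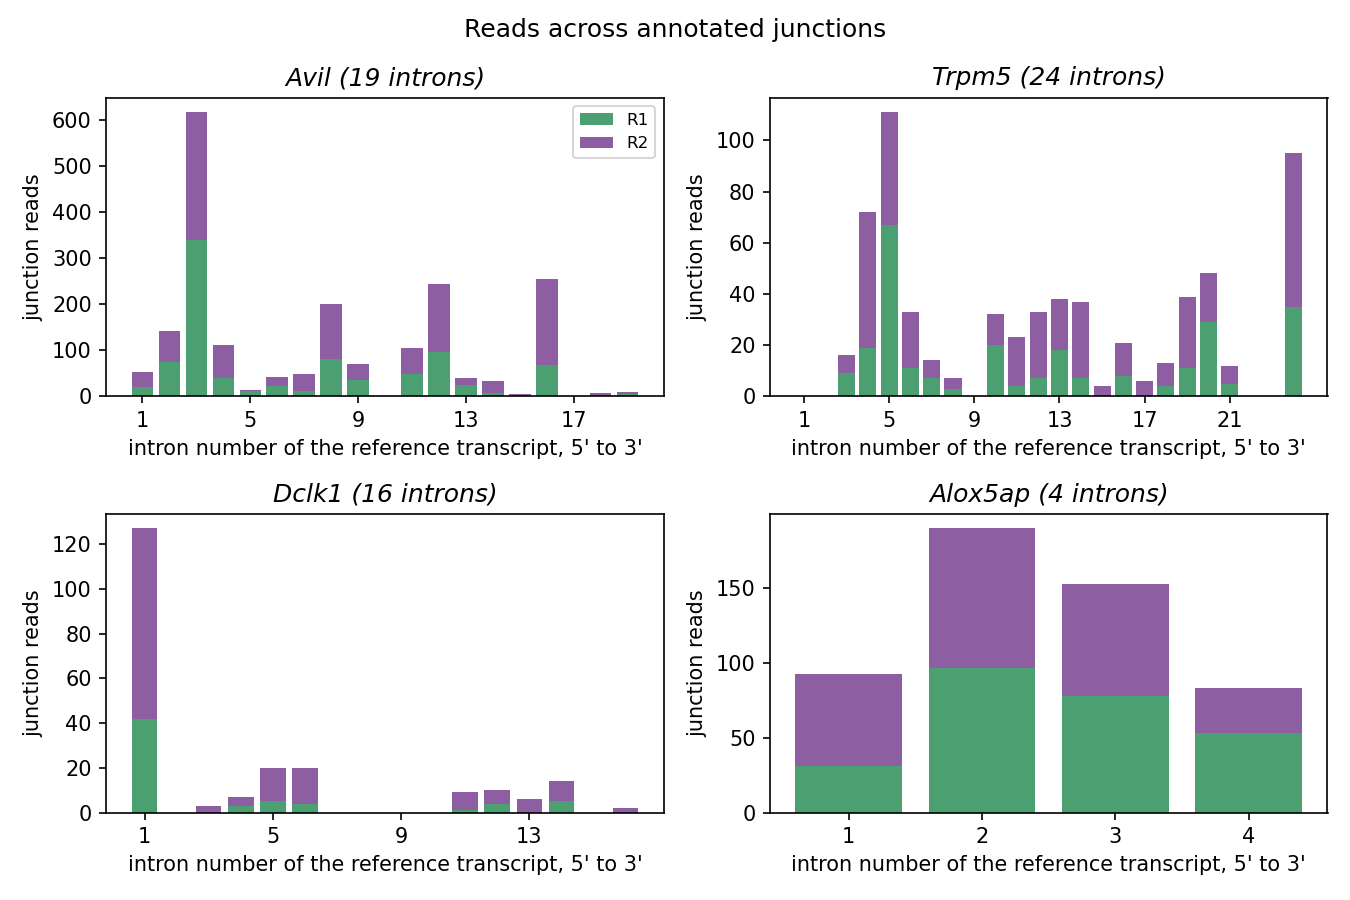
Reads across the annotated introns of the coding transcript with most exons, numbered from the 5' end, for Avil, Trpm5, Dclk1 and Alox5ap, split into R1 (green) and R2 (purple). Intron 3 of Avil (618 reads) and intron 1 of Dclk1 (127 reads) stand far above the other introns of their genes, while all 4 introns of Alox5ap have between 83 and 190 reads.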

How the data were processed

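The libraries were grouped by the labels as 1 group of 2, and the members and gene lists were chosen with earlier results of these data known. The authors deposited expected counts, TPM and FPKM per gene and transcript on mm10, using GENCODE M4 according to the deposited README; expected counts are fractional where reads were shared by a model, though each of the 9 genes had a posterior standard deviation of 0. No aligner or counter is named (not given in the sources used here). TPM are relative to all transcripts, spike-ins included (1.14% and 1.12% of expected counts). The percent each transcript holds of its gene's TPM was deposited by the authors. The authors deposited junction read counts on mm9, with a significance score whose definition is not stated; a score of 0.1 or lower was an alternative filter. The deposited contigs were not used here. Symbols and positions came from GENCODE M21 (42462 of 43346 IDs matched). Rows that name no mouse gene stayed out of library sizes.

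Levels are mean TPM ± SD (n = 2). Ratios are log2 CPM ratios after TMM scaling in edgeR 4.0.16, with a prior count of 2, on counts rounded to whole numbers, with exact conditional binomial (Clopper-Pearson) intervals at 95%; intervals and floors cover counting error alone, as reads carry no molecular identifier and need not be separate molecules. The spread is edgeR's common dispersion, and DESeq2 1.42.0 gave an alternative. Scripts were tested on simulated data. Named genes are all members, up to 6 highest and 2 lowest genes of each list, and whole families where an order is given. Alternatives covered the scaling, prior, filter, detection limit, unit, transcript measure and each library left out.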

Additional observations from a re-analysis of the deposited data

Results flagged for a closer look

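Junctions that lie inside the 9 genes but are not listed in GENCODE M21 were outside the comparisons above, and 8 of 14 had more than the 3 reads that a count of 0 allows. In Avil, junctions of 75 and 158 bases inside intron 12 had 109 reads each, in the same numbers of R1 (48) and R2 (61), and both end at the 3' site of that intron, which itself had 245 reads. Also in Avil, a junction of 2049 bases that leaves the first exon had 23 reads, and one of 207 bases inside intron 1 had 6. In Trpm5 a junction of 364 bases had 21 reads, all in R2, and it has the length of intron 23, which was without reads, 2 bases away from its annotated place. In Plcb2 a junction of 972 bases inside intron 16 had 9 reads, all in R2, and in Alox5 one of 482 bases inside intron 12 had 6, all in R1. In Alox5ap a junction of 13993 bases joined the 5' site of intron 1 to the 3' site of intron 2, passing over the exon between them, with 6 reads, all in R1, against 93 and 190 on introns 1 and 2. What these junctions stand for was not tested.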

How the results depend on the processing

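Of 167 values under another setting 139 moved by less than the spread and 28 moved by more. Leaving a library out always moves a mean of 2 libraries by less than their SD. Levels and transcript shares of single genes could therefore not move by more under that setting. None of 54 log2 ratios of single genes under another setting changed sign. The scalings alone could not have changed one. Their size ratios, replicate 2 over replicate 1, ran only from 1.17 to 1.24, and the log2 ratio smallest in size was -0.12 (Pou2f3). The median log2 ratio, 0.02 over 6 genes, turned to -0.02 with DESeq2 size factors, -0.01 from deposited TPM and -0.12 over all 9 genes. The count of detected genes, 5, lay between 4 and 6. The median level of the 9 genes, 1.085 TPM, was 1.2 as FPKM and 1.75 as TPM rescaled without Clps, Pgc, spike-ins and phiX174, and it ranged from 1.06 to 1.16 with a library left out. Over all 9 genes in place of the 6 highest, 1 gene, Il25, differed over 2-fold. The coefficient of variation, 0.293, was 0.361 without a filter on low counts and 0.175 with DESeq2. The median share of the highest transcript, 63.0% over 6 genes, was 76.3% by read pairs and ranged from 60.2% to 73.4% with a library left out. Junctions with a significance score of 0.1 or lower left no reads for Gnat3 or Il25 and 121 for Plcb2. Placing all read pairs on the coding transcript with most exons was added after seeing the data and left 5 genes detected. No paired analysis was possible because the replicate numbers belong to 1 group.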
